A study of Mus musculus with 10 samples.

Results

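The genes described are the NFAT family and the calcineurin genes that act on it: Nfatc1, Nfatc2, Nfatc3 and Nfat5, the feedback inhibitor gene Rcan1, and Ppp3ca and Ppp3cb, which encode catalytic subunits of calcineurin. What was measured at them is binding of p65 (RelA, a subunit of NF-kB) by chromatin immunoprecipitation and sequencing (ChIP-seq). A peak entry, which has 1 summit, belonged to a gene when the summit lay inside it, or lay within 50 kb with it as the nearest protein-coding gene body of mm10. This gave 39 of the 26132 deposited peak entries (0.149%), at 7 of 21883 protein-coding genes. The limit of 50 kb was not close to any of them, since the farthest summit counted lay 5.54 kb outside its gene, and the nearest one beyond the limit lay 138 kb from Ppp3ca (7.99-fold, stimulated Treg).

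The cells came from spleens and lymph nodes of C57BL/6 mice, with no other genotype given. Stimulated Treg (regulatory T cells) and stimulated Tconv (conventional T cells) had been kept for 3 h on plates coated with anti-CD3, with soluble anti-CD28, and with IL-2 at 10 ng/ml for Treg and 2 ng/ml for Tconv. Unstimulated Treg and unstimulated Tconv are labelled only as such, and how they were kept, with or without IL-2, is not given in the labels. The cell type therefore cannot be told apart from the IL-2 concentration in the stimulated samples, nor stimulation from the culture. Each of these 4 groups has 2 libraries, and 2 further libraries hold input chromatin mixed from both cell types with and without stimulation.

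The authors deposited 1 peak list per group, made from both of its libraries together, so no spread between replicates exists for any value below and no test between groups was possible. The Treg lists held 13078 entries with stimulation and 3442 without, and the Tconv lists 6480 with stimulation and 3132 without. Each list stops at its own strength, and the weakest entry had a −log10 p of 26.6 in stimulated and 15.1 in unstimulated Treg, and of 38.1 in stimulated and 13.3 in unstimulated Tconv. By their names the lists also passed a filter on reproducibility. A gene without an entry is therefore a gene without a peak that passed that list's own filters, and depth per library is unknown. A peak can thus be absent although its −log10 p was above the lowest one listed. Fold enrichment compares the height at a summit with the local background, is the authors' value throughout, and it ranks a summit within its own list without measuring a change between lists. The lists hold no expression values, so the cell types could not be checked by their markers' RNA. Among p65 regions, Foxp3, the Treg lineage factor gene, had 2 in stimulated Treg and 0 in the other lists. Of the other Treg markers looked at, Ikzf2 had 21 in stimulated Treg, 1 in unstimulated Treg and 0 in both Tconv lists. Stimulated Tconv had 6 at Il2ra and 1 at Ctla4, against 11 and 8 in stimulated Treg. Unstimulated Treg had 1 at Il2ra and 0 at Ctla4, and unstimulated Tconv had 0 at both. Binding in the stimulated Treg list but not the stimulated Tconv list was found at 9.49% of all protein-coding genes. These counts therefore do not establish the cell types.

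NFAT proteins are transcription factors that wait in the cytoplasm in a phosphorylated form. When the T cell receptor raises cytoplasmic calcium, the phosphatase calcineurin removes the phosphates and NFAT enters the nucleus, where it acts with partners such as AP-1 and, in Treg, Foxp3. Nfatc1 is itself induced by this pathway and has a short isoform that builds up after stimulation, whereas Nfatc2 and Nfatc3 are present in resting T cells. Nfat5 lacks the calcineurin docking site and is known for its response to osmotic stress. Rcan1 encodes a protein that binds and inhibits calcineurin, and its shorter isoform is transcribed from an internal start that NFAT itself activates.

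Promoter sequence bears on 4 of these genes, since a stimulated Treg region met the 250 bases before an annotated start of Rcan1, Nfat5, Ppp3cb and Nfatc3. The windows of the first 3 are shown because they hold the regions nearest to a start of the feedback inhibitor, of the gene bound in all 4 lists and of a catalytic subunit. Sequences are from RefSeq (GRCm38.p6), on the strand of the gene, and capitals mark matches on either strand to the NFAT core GGAAAA or to the wide NF-kB consensus (GGG, then 5 bases of any kind, then CC).
Rcan1 internal start, chr16:92400079-92400328, minus strand: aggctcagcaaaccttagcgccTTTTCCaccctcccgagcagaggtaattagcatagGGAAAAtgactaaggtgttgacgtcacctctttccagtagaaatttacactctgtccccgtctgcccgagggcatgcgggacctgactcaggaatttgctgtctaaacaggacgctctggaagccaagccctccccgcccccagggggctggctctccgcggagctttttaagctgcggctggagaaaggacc
Nfat5 start, chr8:107293220-107293469, plus strand: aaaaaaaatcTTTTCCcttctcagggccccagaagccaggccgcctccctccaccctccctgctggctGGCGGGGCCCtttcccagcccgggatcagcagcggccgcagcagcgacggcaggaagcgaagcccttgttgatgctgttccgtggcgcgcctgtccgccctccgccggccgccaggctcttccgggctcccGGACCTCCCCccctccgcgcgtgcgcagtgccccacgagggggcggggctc
Ppp3cb start, chr14:20546574-20546823, minus strand: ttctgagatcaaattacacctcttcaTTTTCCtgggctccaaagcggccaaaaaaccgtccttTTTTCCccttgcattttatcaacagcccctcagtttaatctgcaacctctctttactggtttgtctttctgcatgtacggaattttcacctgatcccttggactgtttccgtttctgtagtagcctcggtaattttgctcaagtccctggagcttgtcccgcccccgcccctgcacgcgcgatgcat

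The Rcan1 window held 2 matches to GGAAAA, 1 on each strand, beginning 228 and 193 bases before the start, and none to the wide NF-kB consensus. The Nfat5 window held 1 match to GGAAAA and 2 to the wide NF-kB consensus, and the Ppp3cb window held 2 to GGAAAA and none to that consensus. Both Nfatc3 windows held matches to the wide consensus and none to GGAAAA. Such matches are frequent. Of 32817 annotated starts, 20.4% had a GGAAAA and 45.8% a wide NF-kB consensus in the 250 bases before them, and among the 4847 whose window met a stimulated Treg region the shares were 18.7% and 65.5%. A shorter pattern of the p65 site with more fixed bases, GGGANTTCC, was found at 1.43% of all starts and 2.50% of those in a region. It was found at none of the 8 starts listed for these genes. It has 1 base fewer between GGG and CC than the wide consensus, so it is not a stricter form of it. Its absence does not tell whether stricter sites of the wide spacing are present. The shorter and the wide NF-kB patterns can overlap, and the wide one often matches both strands at the same bases. The promoter table lists no start for Nfatc1 and Ppp3ca.

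Every gene of the group had a p65 peak in the stimulated Treg list, and 3 of the 7 (Nfatc1, Nfatc2 and Nfat5) had one in an unstimulated list. The share of all protein-coding genes with one in either unstimulated list was not computed. Regions, meaning overlapping entries of a list joined together, were present at 7 of the 7 genes in stimulated Treg, where 25.2% of all protein-coding genes had one, and at 2 of 7 in unstimulated Treg, where 13.4% did. In stimulated Tconv 5 of 7 had a region (16.5% of all genes), and in unstimulated Tconv 2 of 7 (12.5%). A stimulated region without any unstimulated one was found at 5 of 7 in Treg, as at 14.4% of all genes, and at 3 of 7 in Tconv, as at 8.15%. Both stimulated lists had a region at 5 of 7, as at 15.7% of all genes. These genes are long, from 47.2 kb for Ppp3cb to 268 kb for Ppp3ca against a median of 17.2 kb, and long genes catch more summits. Among the 5191 genes at least as long as Ppp3cb, the shares with a region were 36.9% for stimulated Treg, 18.3% for unstimulated Treg, 24.7% for stimulated Tconv and 16.7% for unstimulated Tconv. Stimulated Treg held 20 regions of the group and unstimulated Treg 2, while stimulated Tconv held 9 and unstimulated Tconv 2. The count of genes follows how far each list is read: in the upper 50% of each list by fold it was 4 in each stimulated list and 1 in each unstimulated list. With every list reduced to the 3132 entries of the shortest, by −log10 p, it was 2 in both Treg lists, 4 in stimulated Tconv and 2 in unstimulated Tconv, so that the order of the stimulated lists turned. The shares of all protein-coding genes under these settings were not computed.

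**Figure D1:**
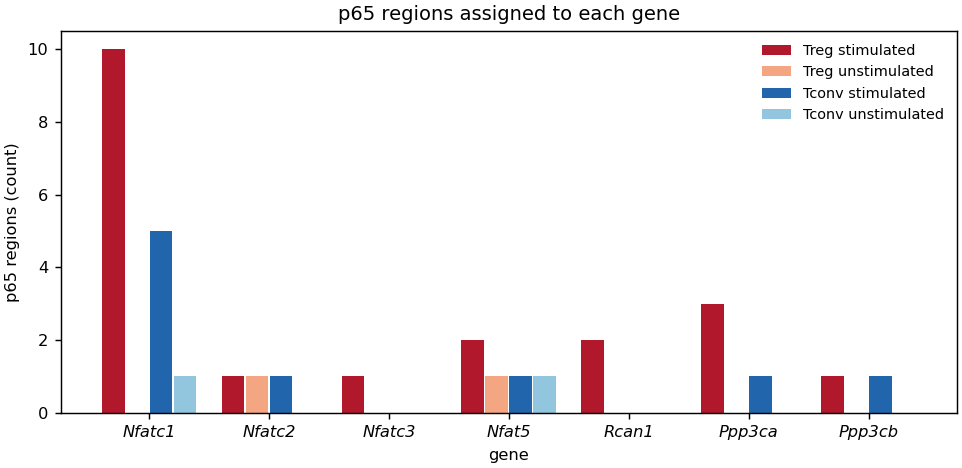
Number of p65 regions (vertical axis) assigned to each gene (horizontal axis) in the 4 pooled peak lists, as bars coloured by group. Nfatc1 had 10 regions in stimulated Treg and 5 in stimulated Tconv, while no other gene of the group had more than 3 in any list.

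Summits of different lists fell at nearly the same bases. Joining summits within 200 bp across lists gave 24 sites, and the summits of a site lay at most 39 bp apart. Stimulated Treg had a summit at all 24 sites and unstimulated Treg at 2, while stimulated Tconv had one at 11 and unstimulated Tconv at 2. All 11 stimulated Tconv summits thus had a stimulated Treg summit within 200 bp, as did 94.9% of the stimulated Tconv summits of the whole list. So did the 2 unstimulated Treg summits, against 73.7% of that whole list, and the 2 unstimulated Tconv summits, against 70.8%. The median fold enrichment of its entries was 11.1 in stimulated Treg against 11.2 for the whole list, and 12.4 in stimulated Tconv against 12.6.

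**Figure D2:**
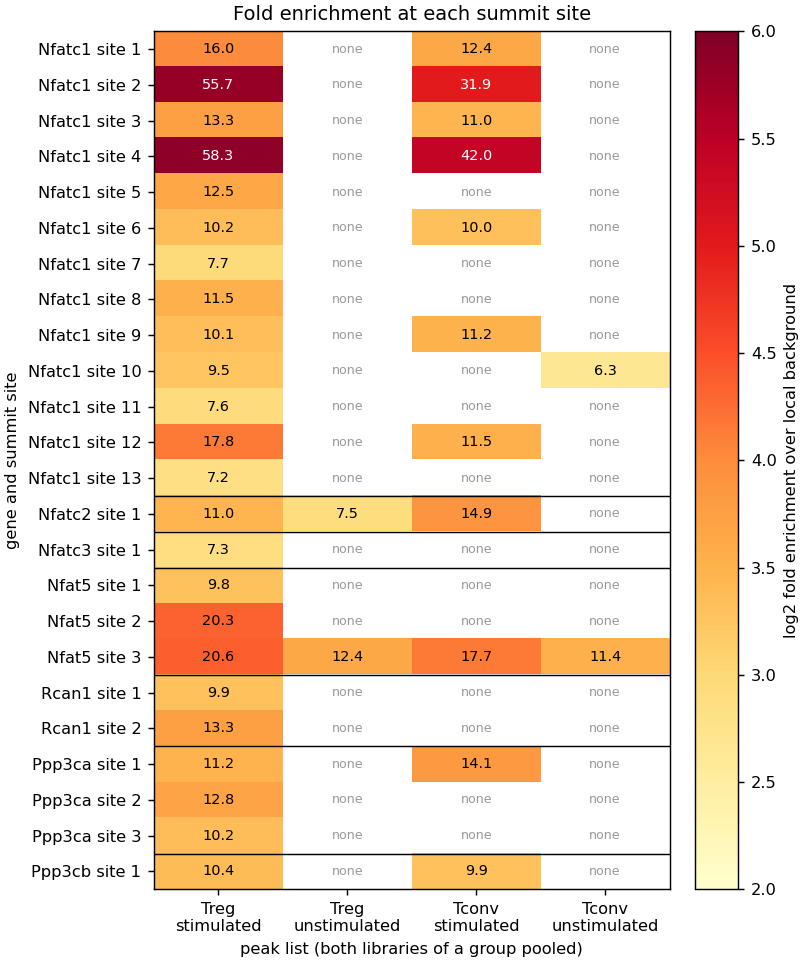
Fold enrichment over the local background at each of the 24 summit sites (rows, in genomic order within a gene) in the 4 pooled peak lists (columns), with colour on a log2 scale. The 2 darkest rows are Nfatc1 sites 4 and 2, at 58.3 and 55.7-fold in stimulated Treg, and only Nfat5 site 3 has a value in all 4 columns.

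Nfatc1, the inducible member, stood out within the group. Its body spans chr18:80606205-80713071 of mm10, and it had 13 sites, 9 inside the gene and 4 outside it. In stimulated Treg it had 10 regions, and of the 5505 genes with a region there 53 had more, while 1.40% of them had 10 or more. Counted inside the gene body alone, that list held 6.55 regions per 100 kb of Nfatc1, against 0.577 per 100 kb over all protein-coding genes, bound or not. The same densities were 2.81 and 0.295 in stimulated Tconv. The other genes of the group with a region inside were also above 0.577 in stimulated Treg, from 0.798 for Nfatc2 to 2.69 for Rcan1. In stimulated Tconv Ppp3cb had 2.12. Unstimulated Treg had no Nfatc1 region, and unstimulated Tconv had 1.

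Along the gene, all sites but site 6 lay within 11.3 kb of an end. On the reverse strand, where Nfatc1 is transcribed, the lower-coordinate end is the 3′ end, and the strongest sites lay there. Site 4, inside the gene 5.84 kb from that end (summit 80612047), had 58.3-fold enrichment in stimulated Treg and 42.0-fold in stimulated Tconv, with −log10 p of 764 and 488. Site 2, 2.35 kb inside the same end (summit 80608552), had 55.7-fold in stimulated Treg and 31.9-fold in stimulated Tconv. Neither site had an entry in either unstimulated list. Within their own lists, 99.1% and 98.5% of entries were at or below the fold of site 4, and 98.8% and 95.9% at or below that of site 2.

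Between these lay site 3 (13.3-fold in stimulated Treg and 11.0-fold in stimulated Tconv), only 749 bp from site 4. Site 1, 5.52 kb beyond the 3′ end, had 16.01-fold in stimulated Treg and 12.4-fold in stimulated Tconv, and site 5, 11.3 kb inside, had 12.5-fold in stimulated Treg and no entry in stimulated Tconv. From there 68.3 kb of the gene passed without a summit in any list. Site 6 followed, 27.2 kb from the 5′ end, with 10.2-fold in stimulated Treg and 10.0-fold in stimulated Tconv.

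The 5′ end held the remaining 7 sites, from 7.17 to 17.8-fold in stimulated Treg, and 2 of them had a stimulated Tconv summit. Inside the gene, sites 7 to 10 lay 8.16, 7.74, 5.85 and 4.88 kb from that end and had 7.74, 11.5, 10.1 and 9.55-fold in stimulated Treg. Of these, site 9 alone had a stimulated Tconv summit (11.2-fold), and site 10 alone had an unstimulated one, in Tconv (6.28-fold, −log10 p of 18.4). At site 10 no stimulated Tconv summit was listed, although a stimulated Tconv region with its summit at site 9 spans the position. At and beyond the 5′ end, site 11 lay 71 bp outside the gene (7.57-fold in stimulated Treg), and sites 12 and 13 lay 1859 and 2746 bp outside (17.8 and 7.17-fold in stimulated Treg). Site 12 had 11.5-fold in stimulated Tconv, and sites 11 and 13 had no entry there.

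**Figure D3:**
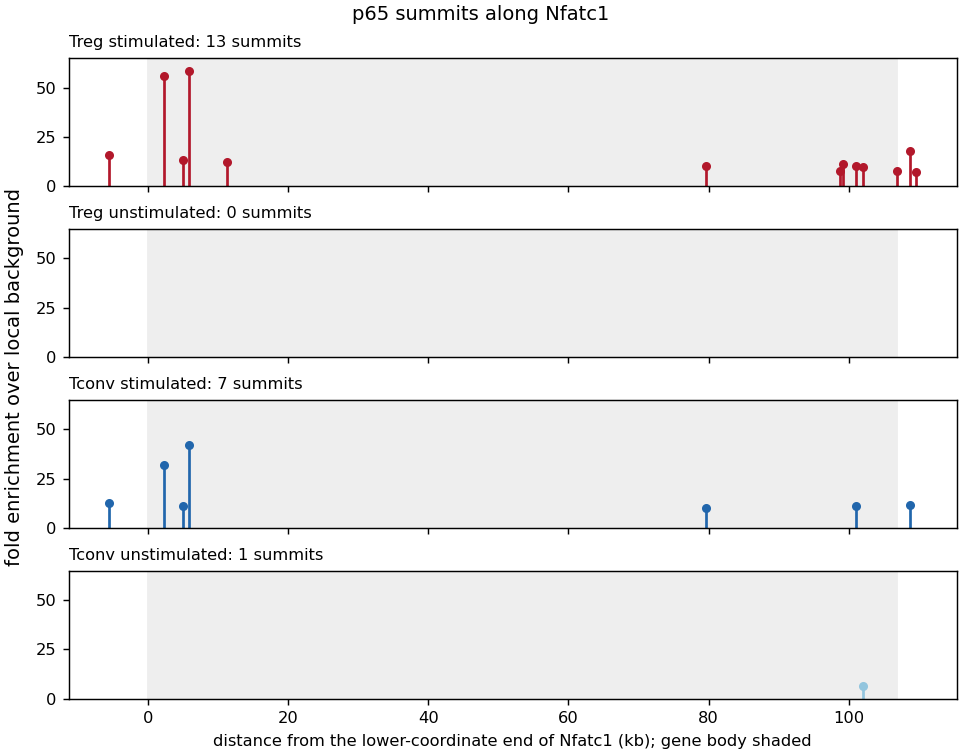
Summits along Nfatc1 in the 4 pooled peak lists (panels), with distance from the lower-coordinate end of the gene in kb on the horizontal axis, fold enrichment over the local background on the vertical axis and the gene body shaded. Stimulated Treg has 13 summits and stimulated Tconv 7 at the same places, with the tallest 2.35 and 5.84 kb inside the left end, while unstimulated Treg has 0 and unstimulated Tconv 1.

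Nfatc2 and Nfatc3, the members present in resting T cells, had 1 site each. The Nfatc2 site (chr2:168574714-168575403, summit 168575152) lay inside the gene, 15213 bp downstream of its nearest annotated start. It had 11.0-fold enrichment in stimulated Treg, 7.47-fold in unstimulated Treg and 14.9-fold in stimulated Tconv, with no entry in unstimulated Tconv. It was the only site of the group with an entry in unstimulated Treg and none in unstimulated Tconv. The group had 2 unstimulated Treg regions, and over that whole list 20.6% of regions had no unstimulated Tconv counterpart. That unstimulated Treg summit was of modest strength, with −log10 p of 26.7 and 43.4% of its list at or below its fold.

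The Nfatc3 region (chr8:106058626-106060369) was found in stimulated Treg alone, at 7.29-fold, with 5.96% of that list at or below it. Its summit lay between the annotated starts of the gene, 600 bp downstream of its first base and 172 bp upstream of the internal start. Its −log10 p of 34.4 is below the lowest value in the stimulated Tconv list, so the absence there cannot be told apart from that list's higher limit. Other summits within 50 kb of Nfatc3 were nearer to its neighbours Dus2 and Slc7a6. The closest of these, on the Dus2 side, lay 4.46 kb from Nfatc3 in stimulated Treg (15.8-fold), 4.47 kb in unstimulated Treg (5.64-fold) and 4.425 kb in stimulated Tconv (10.4-fold).

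Nfat5, the osmotic stress member, was the gene bound in every list. Site 3 lay 77 bp upstream of its annotated start, in the printed window, and had 20.6-fold enrichment in stimulated Treg, 12.4-fold in unstimulated Treg, 17.7-fold in stimulated Tconv and 11.4-fold in unstimulated Tconv. The share of entries at or below it was 83.0, 73.4, 77.1 and 68.2% in the same order, above the median of each list. Stimulated Treg had another summit of nearly the same height 1252 bp upstream of the start (site 2, 20.3-fold, −log10 p of 148) and a weaker one 2205 bp upstream (site 1, 9.81-fold). Neither was listed in stimulated Tconv, where site 3 was the only Nfat5 entry. No Nfat5 summit lay inside the gene body in any list.

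Rcan1, the calcineurin inhibitor, had p65 entries in stimulated Treg and in no other list. Site 1 (chr16:92400056-92400767) had 9.88-fold enrichment with −log10 p of 41.8, and its summit lay 251 bp upstream of the internal start, at the edge of the printed window, which the region covers. Site 2 (chr16:92443327-92444029) lay inside the gene, 22360 bp downstream of the first start, with 13.3-fold enrichment and −log10 p of 65.8. Both −log10 p values are above the 38.1 at which the stimulated Tconv list ends. Since depth is unknown, this does not tell whether the sites would pass that limit in stimulated Tconv. With equal list lengths neither was kept, and Rcan1 then had 0 regions in stimulated Treg as well. Rcan1 and Nfatc3 were the 2 of 7 genes bound in stimulated Treg without a region in stimulated Tconv, a pattern seen at 9.49% of all protein-coding genes.

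The calcineurin catalytic subunit genes had sites near their ends in both stimulated lists. Ppp3ca site 1, 1.84 kb inside the lower-coordinate end of the gene, had 11.2-fold in stimulated Treg and 14.1-fold in stimulated Tconv. Its sites 2 and 3, 56.2 and 73.2 kb inside that end, had 12.8 and 10.2-fold in stimulated Treg and no stimulated Tconv entry. Ppp3cb had 1 site, 15 bp downstream of its annotated start, with 10.4-fold in stimulated Treg and 9.87-fold in stimulated Tconv. Neither gene had an entry in an unstimulated list.

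Stimulated and unstimulated lists of the same cells were then compared by overlap of at least 1 bp. In Treg, 18 of 20 stimulated regions (90%, 95% Clopper-Pearson interval 68.3 to 98.8%) lacked an unstimulated counterpart, where 77.3% of all stimulated Treg regions had none. In Tconv it was 7 of 9 (77.8%, 40.0 to 97.2%), where 67.4% of all regions had none. The shares of the group thus have intervals that contain those of the whole lists, which is a description and not a test. The exceptions in Treg were the regions of Nfatc2 and of Nfat5 at its start, and in Tconv those of Nfat5 and of Nfatc1 at sites 9 and 10. The 2 unstimulated regions of each cell type all had a stimulated counterpart, while 21.6% of unstimulated Treg regions and 36.3% of unstimulated Tconv regions in the whole lists had none. Intervals cover counting over regions alone and take regions as independent. Nfatc1 alone gave 10 of the 20 stimulated Treg regions and 5 of the 9 stimulated Tconv regions, so the shares rest largely on that gene.

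Between the cell types, 9 of 20 stimulated Treg regions (45.0%, 23.1 to 68.5%) lacked a stimulated Tconv counterpart, close to the 49.3% of the whole list. In the other direction 0 of 9 stimulated Tconv regions lacked a Treg counterpart (interval 0 to 33.6%), and 4.15% of the whole list did. With equal list lengths this order turned, with 0 of 3 stimulated Treg regions and 2 of 4 stimulated Tconv regions (50%) lacking a counterpart, and in the upper 50% by fold the shares were 6 of 9 (66.7%) and 2 of 4 (50%). Both settings drop entries by construction, and the shares of the whole lists under them were not computed. By summit, 13 of the 24 sites had no stimulated Tconv summit. For 4 of these the stimulated Treg −log10 p was below the lowest of the Tconv list, and for the other 9 it was above, from 39.6 upwards. The 9 were sites 5, 8 and 10 of Nfatc1, sites 1 and 2 of Nfat5, both sites of Rcan1, and sites 2 and 3 of Ppp3ca. With depth unknown, a Treg value above that limit does not tell whether the site would pass it in Tconv. The same shares over all stimulated Treg summits were not computed. Of the 11 sites with a summit in both stimulated lists, 3 had a higher deposited fold in the Tconv list, namely Nfatc2, Ppp3ca site 1 and Nfatc1 site 9. The same share over all shared summits was not computed. Fold does not measure a change between lists, and the median of all entries was 11.2 in stimulated Treg and 12.6 in stimulated Tconv.

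**Figure D4:**
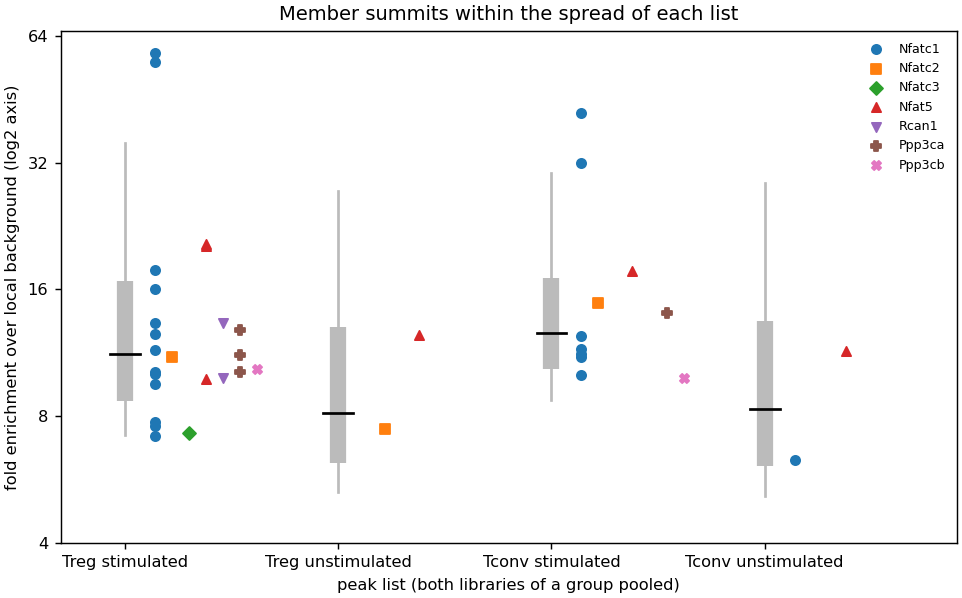
Fold enrichment of each summit of the 7 genes (symbols, log2 vertical axis) beside the spread of all entries in the same pooled list (black bar, median; thick grey line, the central 50%; thin grey line, the central 90%). In stimulated Treg and stimulated Tconv the 2 highest Nfatc1 summits lie above the thin line, and every summit of the other genes lies within it. The lowest Nfatc1 summit in stimulated Treg (site 13, 7.17-fold, with 4.91% of the list at or below it) lies below the thin line.

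By position, of the 24 sites 17 lay inside a gene and 7 outside, and 4 lay within 1 kb of a gene end (Nfatc1 site 11, Nfatc3, Nfat5 site 3 and Ppp3cb). Of the 20 stimulated Treg regions, 15 had their strongest summit inside a gene, against 6055 of 11077 in the whole list. The whole list also counts regions far from any gene, and the genes of the group are long. In stimulated Treg 4 of 20 regions (20%) had their strongest summit within 1 kb of an end of the gene, against 32.4% of the whole list, and in stimulated Tconv 2 of 9 (22.2%), against 38.4%. Regions of the group were from 505 to 3584 bp wide in stimulated Treg and from 580 to 4901 bp in stimulated Tconv, where the widest joins Nfatc1 sites 2, 3 and 4.

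The rest of the calcium and calcineurin pathway was described through 31 other genes, listed with earlier results of these data known. Stimulated Treg had a region at 20 of them and unstimulated Treg at 14, while stimulated Tconv had one at 19 and unstimulated Tconv at 13, against the 25.2, 13.4, 16.5 and 12.5% of all protein-coding genes given above. The 19 genes of stimulated Tconv were all among the 20 of stimulated Treg. Of all 3609 protein-coding genes with a region in stimulated Tconv, 3428 also had one in stimulated Treg. The strongest summits in stimulated Treg lay 2.63 kb outside Rcan3, a relative of Rcan1 (51.3-fold, against 12.3-fold in unstimulated Treg), inside Dyrk2, a kinase gene (50.01 against 8.30-fold), and outside Itpr1, the gene of an inositol trisphosphate receptor that releases calcium (48.0 against 12.4-fold). They were followed by Dyrk1a, whose kinase phosphorylates NFAT for nuclear export (47.9 against 6.80-fold), and Orai1, the gene of the calcium channel pore subunit (45.5-fold, with no unstimulated entry). Each value is the strongest summit of the gene in that list. At Rcan3, Dyrk2, Itpr1 and Dyrk1a the stimulated and unstimulated Treg summits lay at different places, so these pairs do not compare a single site. For Dyrk1a they lay 31.8 kb from an end inside the gene and 0.537 kb outside it, and for Itpr1 2.72 and 0.051 kb outside.

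In stimulated Tconv the strongest summits of the same genes were 28.7-fold at Rcan3, 37.6-fold at Dyrk2, 27.3-fold at Itpr1, 28.1-fold at Dyrk1a and 30.3-fold at Orai1. Rcan3 had 6 regions in stimulated Treg and 4 in stimulated Tconv, where Rcan1 had 2 and 0. Unstimulated cells of either type had a region at 15 of the 31 genes, and those of both types at 12. The same shares over all protein-coding genes were not computed, though 13.4% had a region in unstimulated Treg and 12.5% in unstimulated Tconv. Among those 12 were Rcan3, Itpr1, Dyrk1a, Dyrk2, Ppp3cc (another calcineurin catalytic subunit), Cabin1 (a calcineurin inhibitor), the calmodulin gene Calm2, Fkbp1a (the immunophilin bound by the calcineurin inhibitor FK506), Csnk1a1 (an NFAT kinase), Plcg1 and the calcium sensor gene Stim2. Ppia and Camk4 had one in unstimulated Treg alone, and Gsk3b, another NFAT kinase gene, in unstimulated Tconv alone. The highest unstimulated Treg value among the 15 was 25.4-fold at Fkbp1a, where unstimulated Tconv had 21.2-fold. Cabin1 was the gene of the list with unstimulated regions (8.46-fold in Treg and 8.12-fold in Tconv) and none in either stimulated list. No region was found in any list at 10 of the 31, Nfatc4 and Rcan2 among them.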

How the data were processed

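Per the labels' protocols, p65 ChIP-seq libraries had 12 cycles of PCR. The submitters' processing notes name MACS2 2.1.1.20160309, BWA 0.7.15-r1140, Trim Galore 0.4.1 and mm10. The 4 deposited lists have no header; their names describe pooled replicates, removal of blacklisted regions and conservative IDR, a filter on reproducibility. The use of the input libraries is not stated in the labels. The deposited fold enrichment is a ratio of summit to local background, the −log10 p is the authors' value, and the deposited score is 10 times the −log10 p (within 1 unit in 100% of entries). The score was not used further.

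Genes came from RefSeq's table for GRCm38.p6, which shares the coordinates of mm10. Ties between gene bodies went to a gene of the group, then to the nearer end. The strand of Nfatc1 is background knowledge, and exons and introns were not analysed here. Regions, sites and shares were computed in Python 3.11.15 with pandas 2.3.3 and scipy 1.17.1. On 300 stimulated Treg regions the gene assignment had 0 disagreements with a brute-force search. The genes, the pathway list and the motifs were chosen with earlier results of these data known. The rule for named genes took all 7 genes, the pathway genes with the 5 highest folds in stimulated Treg or any unstimulated region, and the 2 genes most like each of the 7; some genes that it names are not reported here. Alternatives were another distance, overlap, strength limit, list length or unit.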

Additional observations from a re-analysis of the deposited data

How the results depend on the processing

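No paired analysis was possible because each group has 1 list made from both libraries, and for the same reason no library could be left out. A distance of 10 kb moved none of the counts and shares. Stimulated Treg had a region at 6 of 7 genes with summits inside the gene alone, and at 6 of 7 at a common limit on −log10 p. Counting summits inside the gene alone left 1 region at 1 gene in each unstimulated list, and 9 pathway genes in unstimulated Treg. That common limit, 38.1, left 1 region at 1 gene in each unstimulated list, and 5 pathway genes in unstimulated Treg and 4 in unstimulated Tconv. The upper 50% of each list by fold left 9 regions at 4 genes in stimulated Treg, 4 regions at 4 genes in stimulated Tconv, 1 region at 1 gene in each unstimulated list, and 7, 11 and 5 pathway genes in unstimulated Treg, stimulated Tconv and unstimulated Tconv. It also put the share of stimulated Tconv regions without a stimulated Treg counterpart at 50% (2 of 4). With every list reduced to 3132 entries, stimulated Treg kept 3 regions at 2 genes and 11 pathway genes, and stimulated Tconv 4 regions at 4 genes and 12 pathway genes. The shares without a counterpart were then 66.7% (2 of 3) for stimulated against unstimulated Treg, 0% (0 of 3) for stimulated Treg against stimulated Tconv, and 50% (2 of 4) for stimulated Tconv against stimulated Treg. Counting a region for any gene closer than 50 kb gave 4 regions in unstimulated Treg, and 22 and 21 pathway genes in unstimulated Treg and Tconv. These settings drop or add entries by construction. A reciprocal overlap of 50%, summits within 200 bp, or single entries in place of regions kept each share inside its interval. Of 196 counts of regions at single genes under these alternatives, 32 moved by over 1.5 times; Nfatc1 had 6 and 1 regions in stimulated Treg and Tconv in the upper 50%, and 2 and 1 at equal lengths. Joining summits within 100 or 500 bp, settings chosen after seeing the data, gave 24 and 23 sites. Counts this small and an unknown depth limit every share above.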

Other observations

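Likeness to other genes was measured over 8 values per gene, the strongest fold and the number of regions in each of the 4 lists, each as log2(1 + value), among the genes with a region in any list. The distance is Euclidean, and with 4 lists it describes a pattern of presence and height. Nfatc1 lay nearest to Lrch1 (distance 0.44) and St6gal1 (0.48). Lrch1 had 8 regions in stimulated Treg (strongest 54.0-fold) and 5 in stimulated Tconv (39.2-fold), and St6gal1 had 11 in stimulated Treg (47.1-fold) and 5 in stimulated Tconv (35.0-fold). Like Nfatc1, both had 0 in unstimulated Treg and 1 in unstimulated Tconv. Nfatc2 lay nearest to Sun2 (0.14) and Icmt (0.20), each with 1 region in stimulated Treg, unstimulated Treg and stimulated Tconv and none in unstimulated Tconv. Nfat5 lay near Lin54 (0.24), which had regions in all 4 lists. Rcan1 lay nearest to Cd274, which encodes PD-L1, and Fgr, each with 2 stimulated Treg regions (strongest 13.4-fold) and none elsewhere. Ppp3ca lay nearest to Iffo2 and Commd1, Ppp3cb to Slc4a8 and Tulp4, and Nfatc3 to Dynlt1f and Trim12c, a pair with equal values. For genes with 1 or 2 regions in 1 or 2 lists many genes come this close.

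Of the summits near these genes that belong by distance to a neighbour, 11 lay within 50 kb. Beside Nfatc1, a summit nearest to Atp9b lay 25.4 kb beyond its 5′ end, with 13.3-fold enrichment in stimulated Treg and 16.7-fold in stimulated Tconv. Near Nfat5, 1 unstimulated Treg summit (5.09-fold) was nearest to Nob1.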
